A study of Mus musculus with 12 samples.

Results

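Transcripts of 10 standard neutrophil genes were few in spinal cord white matter, before and 72 hours after a demyelinating injury. These 10 genes, of 46078 in the count table, were chosen by symbol: S100a8, S100a9, Ly6g, Cxcr2, Retnlg, Ngp, Camp, Mpo, Elane and Ltf. S100a8, S100a9 and Cxcr2 exceeded 3 counts in every injured pool at both ages. The other 7 genes, which include those for the granule proteins and the surface marker Ly6G, stayed at or near 0 in most pools. Among related neutrophil genes, Csf3r, Lcn2 and Mmp8 had higher levels per kilobase of exon after injury than any of the 10. For the 10 genes, no difference between young and middle-aged mice passed a test, but only S100a8 and Cxcr2 had enough counts for the main test.

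The 12 libraries came from laser-captured ventrolateral white matter of C57Bl6 mouse spinal cord, and each of 4 groups had 3 pools of 5 mice. Young naïve and middle-aged naïve mice were uninjured, and young injured and middle-aged injured mice had received lysolecithin, a lipid-disrupting detergent that strips myelin, 72 hours earlier. Young mice were 6 weeks old and middle-aged mice 8 months old. The labels name no mutant allele or further treatment for any group, and mice of all 4 groups were perfused with saline before the tissue was taken, a step that washes blood out of the vessels.

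Neutrophils are short-lived granulocytes that mature in the bone marrow and enter injured tissue from the blood, usually ahead of monocytes. Mature cells transcribe S100a8, S100a9, Cxcr2 and Retnlg. Their granule proteins are made earlier and in a fixed order: Mpo and Elane are transcribed in promyelocytes, and Ltf, Camp and Ngp in later precursors. A circulating neutrophil therefore carries much of its granule protein without the matching mRNA.

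S100a8 and S100a9 had no or almost no reads in naïve pools, and Cxcr2 had a few. The promoters of S100a8, S100a9 and Cxcr2 are shown because these are the 3 genes whose injured pools all exceeded 3 counts. Bases before the RefSeq start site (GRCm38.p6) are printed 5′ to 3′ on the strand of the gene, with bases that GENCODE places inside an exon left out. Capitals mark matches, on either strand, to 4 motifs: TTNNGNAA for C/EBP factors, GAGGAAGT for PU.1, TATAAA for the TATA box and TGTGGT for RUNX factors.
S100a8, chr3:90668821-90668977, plus strand: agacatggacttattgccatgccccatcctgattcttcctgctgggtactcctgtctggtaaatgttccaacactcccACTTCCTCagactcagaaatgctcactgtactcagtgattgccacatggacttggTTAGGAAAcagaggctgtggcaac
S100a9, chr3:90695722-90695971, minus strand: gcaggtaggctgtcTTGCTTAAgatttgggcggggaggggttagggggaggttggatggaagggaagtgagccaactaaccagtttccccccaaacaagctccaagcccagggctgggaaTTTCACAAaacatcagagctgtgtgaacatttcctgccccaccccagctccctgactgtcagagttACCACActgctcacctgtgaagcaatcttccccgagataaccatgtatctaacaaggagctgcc
Cxcr2, chr1:74153744-74153988, plus strand: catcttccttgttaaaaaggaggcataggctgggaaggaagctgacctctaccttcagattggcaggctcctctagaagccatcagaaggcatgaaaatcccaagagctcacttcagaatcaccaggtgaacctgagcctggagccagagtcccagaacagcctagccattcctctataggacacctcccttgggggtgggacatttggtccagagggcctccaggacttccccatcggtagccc

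The S100a8 window held 1 C/EBP match and 1 PU.1 match on the opposite strand. It also held a TATA box 30 to 25 bases before the RefSeq start, which lies in the 93 bases that GENCODE counts as exon and is not printed. The S100a9 window held 2 C/EBP matches and 1 RUNX match, and the Cxcr2 window held none of the 4 motifs. Over the 11 windows of 250 bases of the 10 genes, of which Ly6g has a pair of start sites, 7 held TTNNGNAA, 5 held GAGGAAGT, 3 held TATAAA and 1 held TGTGGT. The 2 windows of Ly6g share 182 bases with the same GAGGAAGT and TATAAA sites, and by gene the numbers were 6, 4, 2 and 1 of 10. Of 32851 mouse promoter windows of the same length, 36.8% held TTNNGNAA, 2.44% held GAGGAAGT, 12.4% held TATAAA and 14.0% held TGTGGT. These matches describe the sequence and were not tested as binding sites.

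The libraries held 9834447 to 12807437 counts each, and a gene with 3 counts or fewer was taken as not distinguishable from 0. That floor corresponds to 0.234 to 0.305 CPM, read counts scaled to a common library size. The captured tissue carried the transcripts of white matter. The summed level of 6 oligodendrocyte markers was 83480 to 97425 CPM in the young naïve and 50693 to 58011 CPM in the middle-aged naïve pools. After injury it was 18020.5 to 20015 CPM in the young and 7630 to 12186 CPM in the middle-aged pools. Of the 10 neutrophil genes, 2 passed the filter on low counts, S100a8 and Cxcr2, and so entered the edgeR quasi-likelihood test. Both passed only through their injured pools. The tissue was sequenced in bulk, so fewer cells of a type and less RNA per cell cannot be told apart.

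S100a8 and S100a9 encode the subunits of calprotectin, a calcium- and zinc-binding protein that is among the most abundant cytosolic proteins of neutrophils and is also made by monocytes. S100a8 (chr3:90668978-90670035) had 0 counts in all 6 naïve pools. It had 23, 19 and 10 counts in the young injured pools and 18, 12 and 18 in the middle-aged injured pools. Each injured pool was therefore above each naïve pool, and the pools of the injured groups overlapped each other. Mean levels were 1.30 ± 0.490 CPM (SD, n = 3) in young injured and 1.34 ± 0.328 CPM (SD, n = 3) in middle-aged injured mice. With the naïve pools set to the floor of 3 counts per library, S100a8 was at least 4.51-fold higher after injury in young mice and at least 4.75-fold higher in middle-aged mice. The edgeR quasi-likelihood test called both changes, with Benjamini-Hochberg adjusted p = 0.000294 in young and 0.000239 in middle-aged mice.

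**Figure D1:**
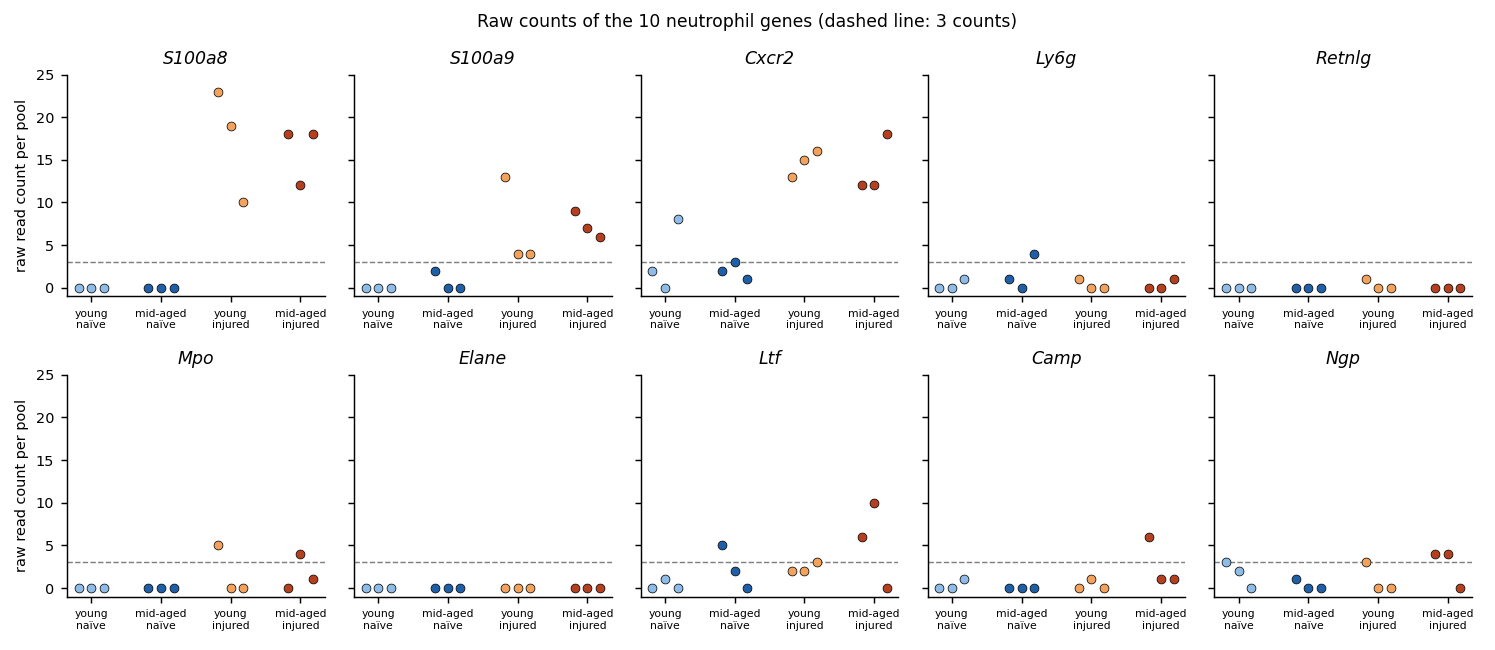
Raw read count (vertical axis, the same scale in each panel) of the 10 neutrophil genes in the 12 pools. Each point is 1 pool of 5 mice, colours and positions give the 4 groups, and the dashed line is the floor of 3 counts. S100a8, S100a9 and Cxcr2 lie above the line in all 6 injured pools, while Elane lies at 0 in all 12 pools.

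S100a9 (chr3:90692632-90695721), the partner of S100a8, lies next to it on chromosome 3 on the opposite strand. It had 0 counts in the 3 young naïve pools and 2, 0 and 0 in the middle-aged naïve pools. The counts were 13, 4 and 4 in the young injured pools and 9, 7 and 6 in the middle-aged injured pools. The injured pools again lay above all naïve pools, although 2 of the young injured pools were only 1 count above the floor. S100a9 was at least 1.80-fold higher after injury in young mice, or at least 1.06-fold without young injured replicate 1, and its ratio of counts in middle-aged mice was 9.87 (95% counting interval 2.43 to 86.6). It did not pass the filter on low counts. When edgeR was run without that filter, the adjusted p was 0.00312 in young and 0.0288 in middle-aged mice. The 2-sided exact permutation test gave p = 0.1 at each age, the smallest value that 3 pools against 3 allow.

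Cxcr2 (chr1:74153989-74161246) encodes the receptor through which neutrophils follow CXC chemokines such as CXCL1 and CXCL2. It had 2, 0 and 8 counts in the young naïve pools and 2, 3 and 1 in the middle-aged naïve pools. After injury it had 13, 15 and 16 counts in young and 12, 12 and 18 in middle-aged mice. The injured pools did not overlap the naïve pools at either age, but 1 young naïve pool stood clearly above the floor. The naïve levels were 0.347 ± 0.453 CPM in young and 0.196 ± 0.117 CPM in middle-aged mice (SD, n = 3 each). The injured levels were 1.11 ± 0.134 CPM in young and 1.17 ± 0.334 CPM in middle-aged mice (SD, n = 3 each).

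The difference of Cxcr2 passed the edgeR test in middle-aged mice, with a log2 fold change of 2.57 (SE 0.81, 95% interval 0.82 to 4.31, adjusted p = 0.0143). It missed the threshold of 0.05 in young mice, with a log2 fold change of 1.71 (SE 0.75, 95% interval 0.10 to 3.33, adjusted p = 0.0679). Single pools decided both calls. Without young naïve replicate 3, the pool with 8 counts, the young log2 fold change was 3.46 (edgeR adjusted p = 0.00464). The middle-aged call was lost without middle-aged naïve replicate 3 (log2 fold change 2.17, edgeR adjusted p = 0.0578) or without middle-aged injured replicate 3 (2.32, edgeR adjusted p = 0.0526). In addition, 12.1% of the 31-base stretches in Cxcr2 exons recur in other genes, and how reads shared between genes were counted is not given in the sources used here.

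In young mice, edgeR called 1 of the 10 genes higher after injury, of the 2 tested, against 28.3% of all 15866 genes tested called higher and 54.6% called in either direction. In middle-aged mice it called 2 of 10, both of the 2 tested, against 29.2% of all tested genes called higher and 58.5% in either direction. A gene that passed the filter mainly through its injured pools was bound to differ. Nothing is therefore read from these shares, or from the edgeR p-values of S100a8 and Cxcr2 after injury in the filtered fit. Without regard to the filter, the pools of 4 genes did not overlap in young mice (S100a8, S100a9, Cxcr2 and Ltf), but those of Ltf were all at or under the floor of 3 counts. The same was true of 4 genes in middle-aged mice (S100a8, S100a9, Cxcr2 and Camp), with Camp above the floor in 1 pool. Over all tested genes, the share higher without overlap was 35.0% for the young and 31.5% for the middle-aged. These shares cover only genes that passed the filter, which S100a9, Ltf and Camp did not.

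Ly6g encodes Ly6G, the surface protein by which mouse neutrophils are usually sorted and depleted. Ly6g (chr15:75155240-75159126) had 0, 0 and 1 counts in young naïve, 1, 0 and 4 in middle-aged naïve, 1, 0 and 0 in young injured and 0, 0 and 1 in middle-aged injured pools. Its only pool above the floor was thus a naïve one, and 7 of the 12 pools were at 0. In Ly6g exons, 9.55% of the 31-base stretches recur in 11 other genes, among them Ly6c1, Ly6c2 and Ly6a, which makes its few counts uncertain. Retnlg (chr16:48872621-48874496), which encodes a secreted resistin-like protein typical of mature blood neutrophils, had 1 count in 1 young injured pool and 0 in the other 11 pools.

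The genes of the primary granules, whose transcription ends early in neutrophil maturation, were also close to empty. Elane (chr10:79886247-79888215), the gene for neutrophil elastase, had 0 counts in all 12 pools. Mpo (chr11:87793581-87804413), the gene for myeloperoxidase, had 0 counts in all 6 naïve pools, 5, 0 and 0 in the young injured pools and 0, 4 and 1 in the middle-aged injured pools. Mpo therefore passed the floor in 1 pool of each injured group and was at 0 in 3 of the 6 injured pools. An antisense gene, Gm11505, overlaps Mpo, and reads of the pair can be told apart only if the counting used the strand, which is not given in the sources used here.

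Reads of the secondary granule genes Ltf, Camp and Ngp were scattered. Ltf (chr9:111019271-111042767), the gene for the iron-binding protein lactoferrin, had 0, 1 and 0 counts in young naïve, 5, 2 and 0 in middle-aged naïve, 2, 2 and 3 in young injured and 6, 10 and 0 in middle-aged injured pools. Middle-aged naïve and middle-aged injured pools overlapped, with a ratio of counts of 2.05 (95% counting interval 0.798 to 5.90). Camp (chr9:109847379-109849617), which encodes the antimicrobial peptide cathelicidin, had 0, 0 and 1 counts in young naïve, 0 in all middle-aged naïve, 0, 1 and 0 in young injured and 6, 1 and 1 in middle-aged injured pools. A single middle-aged injured pool held 6 of its 8 counts in that group. Ngp (chr9:110419747-110423012), the gene for neutrophilic granule protein, had 3, 2 and 0 counts in young naïve, 1, 0 and 0 in middle-aged naïve, 3, 0 and 0 in young injured and 4, 4 and 0 in middle-aged injured pools. Its naïve and injured pools overlapped at both ages. When edgeR was run without a filter on low counts, none of Ltf, Camp, Ngp, Mpo, Ly6g and Retnlg was called after injury at either age, and the lowest adjusted p was 0.0676, for Camp in middle-aged mice.

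Levels can be compared between genes only per kilobase of exon, here as the mean CPM per kilobase over the 6 injured pools. On that scale S100a8 stood at 1.90 ± 0.538, S100a9 at 1.08 ± 0.486 and Cxcr2 at 0.373 ± 0.0754 (SD, n = 6). The other genes followed at 0.163 for Camp, 0.119 for Ngp, 0.0881 for Ltf, 0.0376 for Mpo, 0.0283 for Ly6g, 0.0206 for Retnlg and 0 for Elane. The spread of S100a8 overlapped that of S100a9, and from Camp to Retnlg the SD of each gene was as large as its distance to the next or larger. Of 15809 tested genes with a length, 35.7% had a lower mean level per kilobase than S100a8 and 24.9% a lower one than S100a9. Lyz2, a lysozyme gene that macrophages transcribe strongly, stood at 5121 on the same scale.

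Summed over the 10 genes, the naïve pools held 3 to 11 counts and the injured pools 33 to 61, so the groups did not overlap. Without S100a8, S100a9 and Cxcr2, the sum was 2 to 7 counts in the naïve and 3 to 19 in the injured pools, which overlapped. Markers of monocytes and macrophages moved with these sums, and so did those of T and B cells at each age. Not all markers of blood cells did, since platelet markers summed to 0.630 to 1.68 CPM in the naïve and 0.559 to 2.40 CPM in the injured pools. The 6 monocyte markers (Ly6c2, Ccr2, F13a1, Plac8, Chil3 and Fn1) summed to 32.9 to 84.6 CPM in the naïve pools and 1269 to 1515 CPM in the injured pools, and all 6 were called higher at both ages. The 5 macrophage markers (Adgre1, Cd68, Lyz2, Mrc1 and Ms4a7) summed to 25.2 to 130 CPM in the naïve pools and 6467 to 8980 CPM in the injured pools, and all 5 were called higher at both ages. The monocyte markers had 306 to 806 counts in the naïve and 15621 to 20635 in the injured pools, beside the sums of 3 to 11 and 33 to 61 for the 10 neutrophil genes. S100a8, S100a9 and Cxcr2 are also transcribed in some monocytes and macrophages, and the part of these cells in the counts was not tested.

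**Figure D2:**
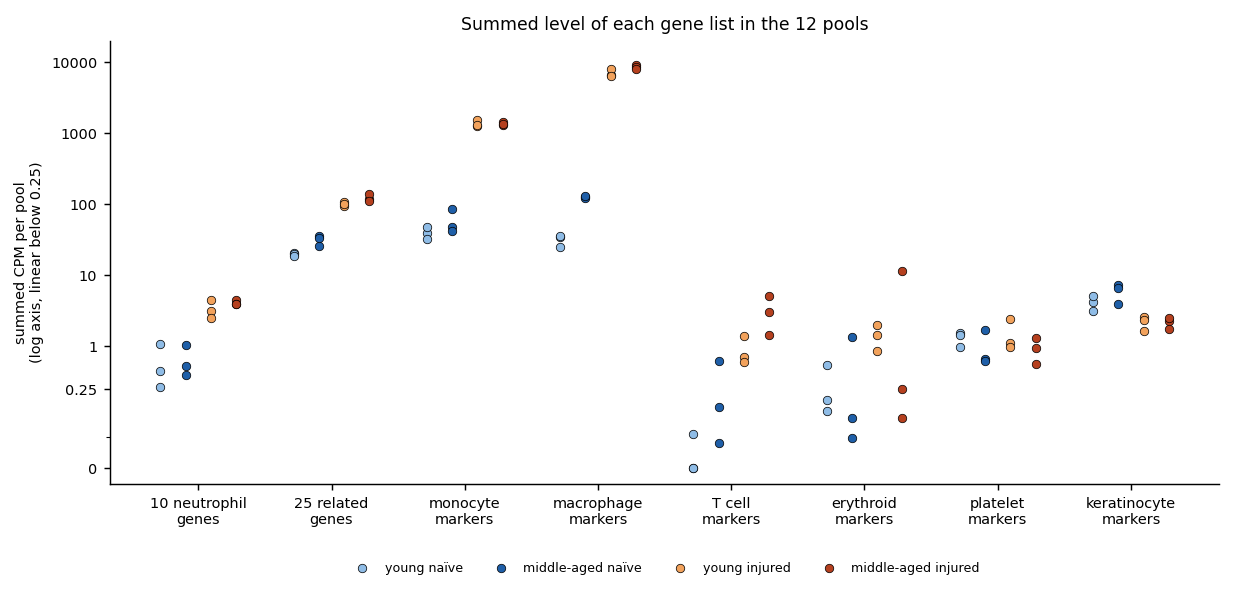
Summed CPM (vertical axis, logarithmic above 0.25 and linear below) of 8 gene lists in the 12 pools. Each point is 1 pool and colours give the 4 groups. The 10 neutrophil genes stay below 5 CPM in every pool, while the macrophage markers reach 6467 to 8980 CPM in the injured pools.

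Other markers served as checks on what the captured tissue could hold. Krt5 and Krt14, keratinocyte genes that would mark skin, had 0 counts in all 12 pools apart from 1 count of Krt14 in 1 pool. The other 2 keratinocyte markers had reads, Krt10 17 to 67 and Krt1 1 to 9 counts per pool, and Krt10 was called lower after injury at both ages (log2 fold change -1.15 in the young, edgeR adjusted p = 0.0101, and -1.68 in the middle-aged, edgeR adjusted p = 0.000645). Of 3 mast cell genes, Tpsb2 and Cma1 had 0 counts in all 12 pools, while Cpa3 had 0 in the naïve pools and 0 to 4 in the injured pools. Hemoglobin and other erythroid markers, which would mark blood left in the vessels, summed to 0.182 to 0.544 CPM in young naïve, 0.0960 to 1.36 in middle-aged naïve and 0.853 to 1.98 in young injured pools, so the young groups did not overlap. The sums were 0.160 to 11.4 CPM in the middle-aged injured pools, where replicate 3 had 127 counts of Hba-a1 and each of the other 11 pools had at most 3. The part of blood in the neutrophil counts was not tested. In that same pool S100a8 had 18, S100a9 6 and Cxcr2 18 counts, of which only that of Cxcr2 lay above the range of the other injured pools, and Ltf, Ngp and Mpo had 0, 0 and 1.

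No effect of age was detected in the 10 genes, of which only S100a8 and Cxcr2 entered the main test. Without the filter, edgeR tested 9 of the 10 and called 0 for age in naïve or in injured mice. Of all 27172 genes in that fit, it called 1153 in naïve and 437 in injured mice. In injured mice the log2 difference, middle-aged minus young, was 0.03 for S100a8 (95% interval -1.11 to 1.17, edgeR adjusted p = 0.998) and 0.08 for Cxcr2 (95% interval -1.30 to 1.45, edgeR adjusted p = 0.997). These intervals leave room for a change of more than 2-fold in either direction. For S100a9 the exact permutation test of young against middle-aged injured pools gave a 2-sided p = 0.6. In naïve mice the log2 difference of Cxcr2 was -0.78 (95% interval -2.80 to 1.25, edgeR adjusted p = 0.709), and S100a8 could not be compared because both groups were at 0. The injury effect on Cxcr2 differed between the ages by 0.85 on the log2 scale (95% interval -1.58 to 3.29, edgeR adjusted p = 0.871).

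By edgeR, 0 of the 2 tested genes were called for age in naïve mice, in injured mice or for the difference of the injury effects. Over all tested genes, 3.8%, 1.15% and 0.139% were called in these comparisons. Of the same 2 genes, 0 had an unadjusted p under 0.05 in any of the 3, and DESeq2 called 0, with no adjusted p given for either gene in injured mice or for the difference. The CPM of Camp alone did not overlap between the ages after injury, but its counts tied at 1 in 1 young and 2 middle-aged pools, so this separation came from library scaling below the floor. Over all tested genes, 11.1% were higher in middle-aged injured pools without overlap. Between naïve groups, 0 of the 10 genes were free of overlap, against 7.77% of tested genes higher and 9.34% lower. The shares without overlap cover only genes that passed the filter, which 8 of the 10 did not.

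A further 25 genes of neutrophil maturation and function were read from the same test, of which 10 passed the filter. After injury 6 rose at both ages, Lcn2, Mmp8, Csf3r, Hp, Padi4 and Trem1, against 28.3% of all tested genes called higher in young and 29.2% in middle-aged mice. Mmp9 fell at both ages and Hdc fell in middle-aged mice, against 26.3% of all tested genes called lower in young and 29.3% in middle-aged mice. The median log2 fold change of the 10 genes was 3.88 in young and 3.48 in middle-aged mice, and that of all tested genes was 0.00 and -0.03. Mmp8, Hp, Padi4 and Trem1 had at most 4 counts in any naïve pool, and Lcn2 had 5, 24, 1, 5, 0 and 14 in the naïve pools. All of these passed the filter only through their injured pools, so a rise was built in. Nothing is therefore read from the count, the median or the edgeR p-values of these genes after injury. Several of the genes that rose are also transcribed in monocytes, macrophages or glia, and the part of each cell type was not tested.

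Csf3r, the receptor for the granulocyte growth factor G-CSF, had 57, 50 and 67 counts in young naïve, 118, 117 and 156 in middle-aged naïve, 723, 719 and 769 in young injured and 724, 839 and 546 in middle-aged injured pools. Its log2 fold change after injury was 3.31 at the young age (edgeR adjusted p = 5.19e-09) and 2.27 at the middle age (edgeR adjusted p = 8.68e-08). It was also the only one of the 10 tested genes called for age in naïve mice, higher in middle-aged mice (95% interval of the log2 difference 0.69 to 1.51, edgeR adjusted p = 0.00554). That call was lost when only the naïve pools were fitted (edgeR adjusted p = 0.158), where 0.493% of all genes were called. The difference of its injury effects between ages was -1.04 (edgeR adjusted p = 0.134), although DESeq2 gave an adjusted p of 0.0181 and edgeR without the filter one of 0.0446. Microglia and macrophages also transcribe Csf3r.

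Lcn2 encodes lipocalin-2, an iron-trapping protein of secondary granules that reactive astrocytes also make. It had 5, 24 and 1 counts in young naïve, 5, 0 and 14 in middle-aged naïve, 178, 353 and 302 in young injured and 193, 391 and 392 in middle-aged injured pools. Its log2 fold change after injury was 4.46 in young mice (edgeR adjusted p = 4.53e-05), while middle-aged mice had 5.53 (edgeR adjusted p = 9.67e-06). Without naïve replicate 2 of the young or naïve replicate 3 of the middle-aged, these values were 6.11 and 6.70.

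Mmp8 encodes neutrophil collagenase, a protease stored in secondary granules. It had 0 counts in the young naïve pools, 0, 0 and 4 in the middle-aged naïve pools, 194, 152 and 118 in the young injured pools and 293, 253 and 166 in the middle-aged injured pools. It was at least 40.2-fold higher after injury in young mice and its ratio of counts was 160 in the middle-aged (95% counting interval 62.1 to 588, edgeR adjusted p = 3.36e-07), where 1 naïve pool held all 4 naïve counts. Per kilobase of exon, Mmp8 stood at 6.44, Lcn2 at 9.17 and Csf3r at 15.7 mean CPM over the injured pools, each above S100a8 at 1.90. Of the tested genes, 65.0%, 73.1% and 83.7% had a lower level than Mmp8, Lcn2 and Csf3r, in that order.

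Hp, Padi4 and Trem1 rose from at most 1 count in any naïve pool. Hp, the gene for the hemoglobin scavenger haptoglobin, had 12, 17 and 9 counts in young injured and 20, 41 and 21 in middle-aged injured pools. Padi4 encodes the enzyme that citrullinates histones when neutrophils release chromatin traps, and had 24, 17 and 14 counts in young injured and 33, 24 and 17 in middle-aged injured pools. Trem1, an amplifying receptor of myeloid cells, had 6, 11 and 6 counts in young injured and 11, 20 and 8 in middle-aged injured pools. With 1 naïve count in all, the ratio of counts of Hp was 29.9 in young mice (95% counting interval 5.05 to 1211, edgeR adjusted p = 0.000782), against 73.6 in middle-aged mice (12.8 to 2942, edgeR adjusted p = 4.31e-05). That of Padi4 was 43.3 in young mice (7.45 to 1739, edgeR adjusted p = 0.000183), against 66.4 in middle-aged mice (11.6 to 2658, edgeR adjusted p = 4.53e-05). Trem1 was at least 2.01-fold higher in young mice (edgeR adjusted p = 0.00198), and its ratio was 35.0 in middle-aged mice (5.92 to 1417, edgeR adjusted p = 0.000897).

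Mmp9, the gene for gelatinase B of the tertiary granules, went the other way. It had 112, 108 and 60 counts in young naïve, 90, 86 and 190 in middle-aged naïve, 74, 47 and 63 in young injured and 53, 64 and 48 in middle-aged injured pools. Counts of the young groups overlapped, but scaled to CPM each injured pool lay below each naïve pool at both ages. Its log2 change after injury was -0.94 in young mice (edgeR adjusted p = 0.0101), against -1.27 in middle-aged mice (edgeR adjusted p = 0.00121). The young call was lost without young injured replicate 2 (log2 fold change -0.78, edgeR adjusted p = 0.0511). Hdc, the histidine decarboxylase of granulocytes and of some neurons, had 13, 89 and 8 counts in middle-aged naïve and 6, 1 and 2 in middle-aged injured pools, with a log2 fold change of -3.83 (edgeR adjusted p = 0.00277). Without middle-aged naïve replicate 2, the pool with 89 counts, it was -1.86 (edgeR adjusted p = 0.0304), and without middle-aged injured replicate 1 it was -4.77. Of the 2 tested genes that remain, Pglyrp1 had 13 to 42 counts in any pool with no call, and Il1r2, a decoy receptor for interleukin-1, had a log2 fold change of 1.36 in middle-aged mice (edgeR adjusted p = 0.079). Without that same naïve pool, that of Il1r2 was 2.54 (edgeR adjusted p = 0.00286).

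**Figure D3:**
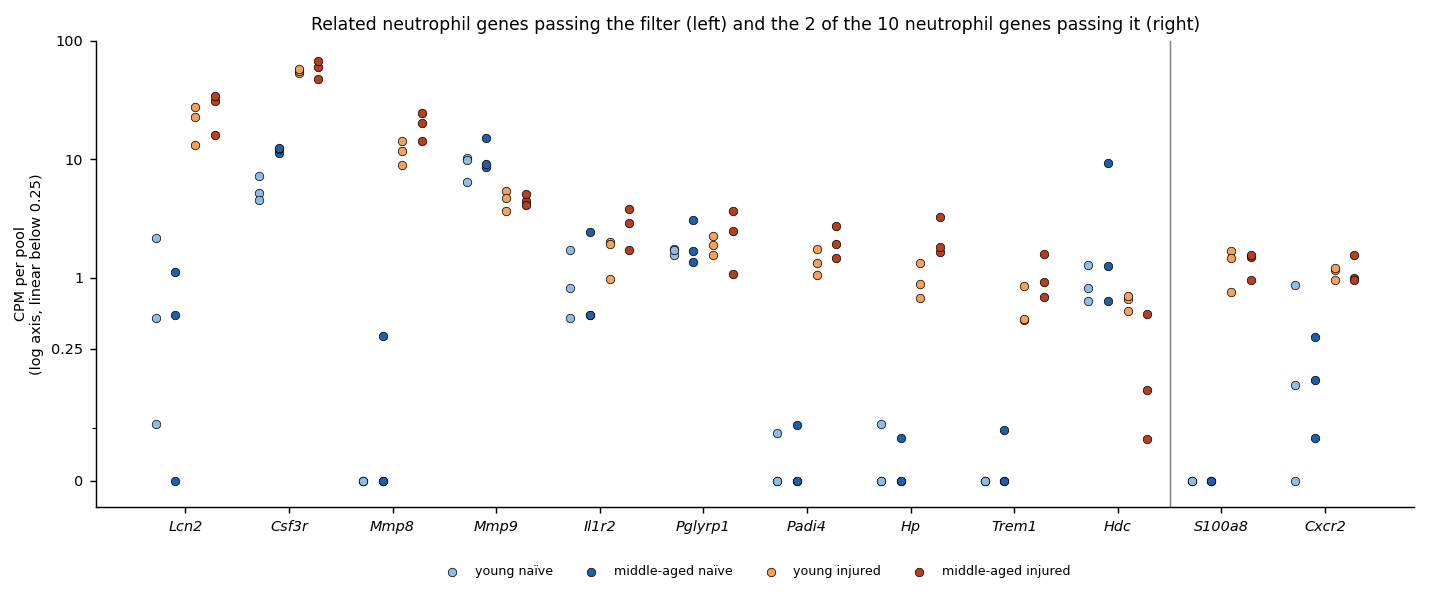
CPM per pool (vertical axis, logarithmic above 0.25 and linear below) of the 10 related neutrophil genes that passed the filter on low counts, left of the line, and of S100a8 and Cxcr2, right of it. Each point is 1 pool and colours give the 4 groups. Csf3r, Lcn2 and Mmp8 in the injured pools lie well above S100a8 and Cxcr2, while Mmp9 lies lower in the injured than in the naïve pools.

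The 15 related genes that did not pass the filter had at most 19 counts in any pool. Ms4a3 and Wfdc21 had 0 counts in all 12 pools, and Ctsg and Cebpe, genes of neutrophil precursors, had at most 1 count in any pool. Prtn3, the gene for proteinase 3 of the primary granules, had 1, 5 and 0 counts in young naïve, 0, 1 and 0 in middle-aged naïve, 4, 3 and 1 in young injured and 6, 4 and 5 in middle-aged injured pools. Cd177, a surface protein of a subset of neutrophils, had 0 counts in all 6 naïve pools, 3, 1 and 1 in young injured and 13, 9 and 10 in middle-aged injured pools. Each middle-aged injured pool was above each young injured pool for Cd177, but the difference did not pass the edgeR test without the filter (log2 difference 2.72, adjusted p = 0.283). By CPM, 5 of the 25 related genes were higher in this way (Prtn3, Mmp8, Hp, Fpr1 and Cd177) and 1, Hdc, was lower. Of the 5, 2 had passed the filter, and over all genes that passed it 11.1% were higher without overlap. In the main test 0 of the 10 related genes tested were called for age in injured mice, against 1.15% of all tested genes. Run without the filter, edgeR called 7 of 23 related genes with reads after injury in young mice, against 32.1% of all genes. In middle-aged mice it called 14, with Mmp9, Hdc and Asprv1 among them as lower, against 35.1%. Asprv1 had 0, 15 and 19 counts in middle-aged naïve and 1, 1 and 4 in middle-aged injured pools, which overlapped. Its ratio of counts there was 0.158.

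Recruitment of neutrophils from the blood depends on chemokines, on selectins and integrins that hold the cells to the vessel wall, and on lipid mediators. Of 22 such genes, 13 passed the filter. After injury 13 of the 13 rose in young mice and 12 of the 13 in middle-aged mice, against 28.3% and 29.2% of all tested genes, with Lta4h as the exception (log2 fold change 0.31, edgeR adjusted p = 0.0917). The median log2 fold change of the 13 was 3.71 in young and 3.70 in middle-aged mice. Cxcl1, Selp and Sele had at most 5 counts in any naïve pool and passed the filter only through their injured pools. Nothing is therefore read from these counts and medians, or from the edgeR p-values of Cxcl1, Selp and Sele after injury. Most of these genes also serve monocytes, whose markers rose in the same pools.

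The ligands of CXCR2 were low. Cxcl1 had 0, 2 and 0 counts in young naïve, 0 in all middle-aged naïve, 9, 13 and 14 in young injured and 14, 5 and 67 in middle-aged injured pools. It was called at both ages, with a ratio of counts of 14.2 in young mice (95% counting interval 3.65 to 121, edgeR adjusted p = 0.0297) and at least 8.72-fold higher in middle-aged mice (edgeR adjusted p = 0.00116). Without middle-aged injured replicate 3, the pool with 67 counts, it was at least 2.78-fold higher there. The young call was lost when young naïve replicate 1 or 3 or young injured replicate 2 or 3 was left out (edgeR adjusted p = 0.0573 to 0.0945). Cxcl2 had 0 counts in all 6 naïve pools, 0, 8 and 2 in young injured and 3, 1 and 16 in middle-aged injured pools. Cxcl5 had 2, 4 and 4 counts in young injured and 3, 5 and 11 in middle-aged injured pools, which overlapped the naïve pools, and Cxcl3 and Ppbp had at most 3 counts in any pool. Middle-aged injured replicate 3 had the highest count of Cxcl1, Cxcl2 and Cxcl5 of all 12 pools, and it is also the pool with 127 counts of Hba-a1. The cytokines that drive granulocyte production were at or close to 0, with 0 counts of Il17a in all 12 pools and 1 count of Csf3, the gene for G-CSF, in each of 2 middle-aged injured pools.

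**Figure D4:**
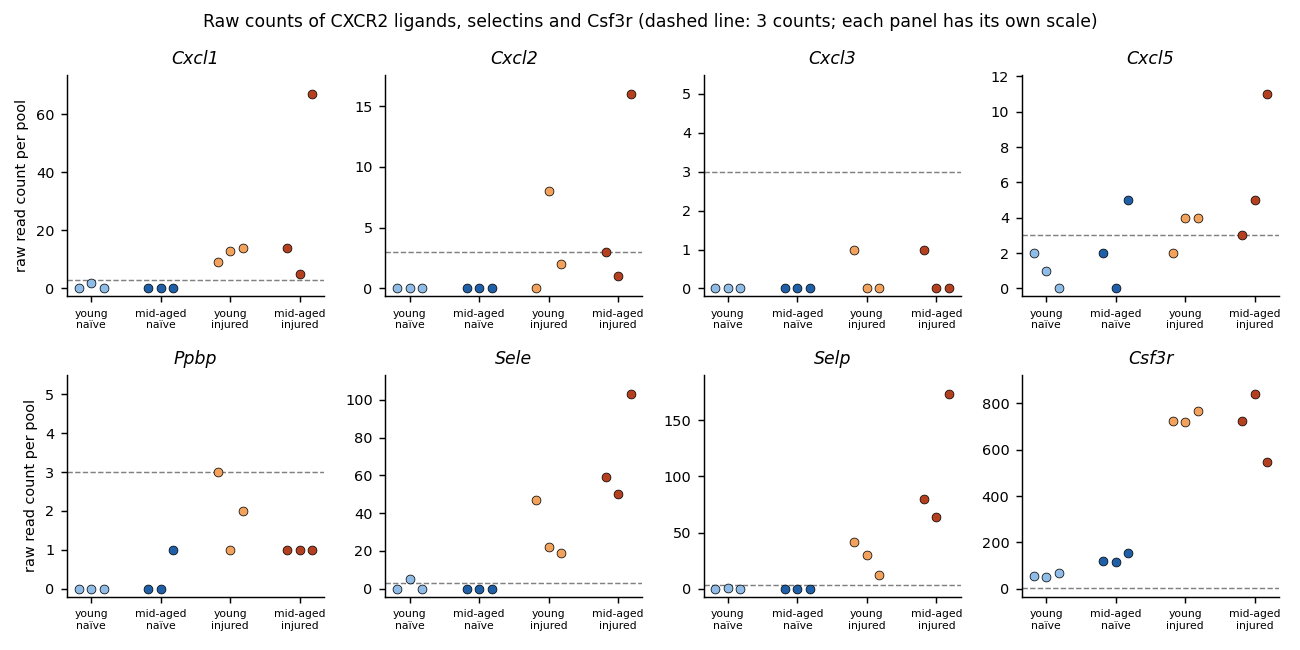
Raw read count (vertical axis, a separate scale in each panel) of 5 ligands of CXCR2, 2 selectin genes and Csf3r in the 12 pools. Each point is 1 pool, colours and positions give the 4 groups, and the dashed line is the floor of 3 counts. Middle-aged injured replicate 3 is the highest point for Cxcl1, Cxcl2, Cxcl5, Sele and Selp, and Sele and Selp are higher in each middle-aged injured pool than in any young injured pool.

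Selectins let leukocytes roll on the vessel wall. Selp and Sele, the P- and E-selectin genes of activated endothelium, were near 0 in naïve tissue. Selp had 42, 30 and 12 counts in young injured and 80, 64 and 173 in middle-aged injured pools, and at most 1 in any naïve pool. Sele had 47, 22 and 19 counts in young injured and 59, 50 and 103 in middle-aged injured pools, with 5 counts in 1 young naïve pool and 0 in the others. Selp was called after injury at both ages (edgeR adjusted p = 0.000359 in young and 7.44e-06 in middle-aged mice), as was Sele (edgeR adjusted p = 0.00254 and 4.08e-05). Against middle-aged naïve pools, all at 0, Selp was at least 31.7-fold and Sele at least 21.1-fold higher after injury, and without middle-aged injured replicate 3 Selp was at least 20.9-fold higher.

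Both genes were higher in each middle-aged than in each young injured pool. The log2 difference was 2.07 for Selp (edgeR adjusted p = 0.0979) and 1.42 for Sele (edgeR adjusted p = 0.428), so neither passed the test. Without middle-aged injured replicate 3, the pool with the Hba-a1 counts, the log2 difference was 1.49 for Selp and 1.03 for Sele. By edgeR 0 of the 13 recruitment genes were called for age in injured mice, and 5 had an unadjusted p under 0.05. The share of all genes under that unadjusted p is not given here, so nothing is read from the 5. DESeq2 called 1 of the 13, Selp, and 458 of all 15866 genes. The pools of 8 of the 13 did not overlap and were higher in middle-aged mice, against 11.1% of all tested genes. When edgeR was fitted to the injured pools alone it called 4: Selp, Tlr4, Alox5ap and Itgam. In that fit 5.44% of all 15048 genes were called for age, against 1.15% with all pools.

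The integrin genes rose in both ages. Itgb2, the shared beta chain of leukocyte integrins, had a log2 fold change after injury of 5.12 in young mice (edgeR adjusted p = 2.79e-10), against 4.46 in middle-aged mice (edgeR adjusted p = 5.37e-10). Itgam, its partner in the complement receptor Mac-1 of neutrophils, monocytes and microglia, had one of 4.43 in young mice (edgeR adjusted p = 9.91e-09), against 3.91 in middle-aged mice (edgeR adjusted p = 1.51e-08). Itgal, the alpha chain of the integrin LFA-1, had one of 4.02 in young mice (edgeR adjusted p = 5.89e-06), against 3.70 in middle-aged mice (edgeR adjusted p = 6.49e-06), or 4.54 without middle-aged naïve replicate 3. In naïve mice Itgb2 was higher in middle-aged mice by 1.14 (edgeR adjusted p = 0.00924), a call lost when only the naïve pools were fitted (edgeR adjusted p = 0.157). Itgam was higher there by 1.11 (edgeR adjusted p = 0.0407), a call lost in 9 of the 12 fits that each left out 1 pool (edgeR adjusted p = 0.0565 to 0.152). Tlr4, a receptor for S100A8 and S100A9 among other ligands, had a log2 fold change after injury of 4.62 in young mice (edgeR adjusted p = 1.44e-06), against 4.70 in middle-aged mice (edgeR adjusted p = 7.07e-07). Ager, which encodes another receptor of these proteins, had at most 4 counts in any pool. Alox5ap, which encodes the activating protein of 5-lipoxygenase in leukotriene synthesis, had a log2 fold change after injury of 3.88 in young mice (edgeR adjusted p = 1.35e-09), against 3.63 in middle-aged mice (edgeR adjusted p = 1.66e-09).

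The genes whose log2 CPM over the 12 pools, centred on its mean, differed least from that of S100a8 were Raet1e (mean absolute difference 0.16), F630028O10Rik (0.17) and Tec (0.18). For Cxcr2 they were Gm26765, Nox4 and Disc1, at 0.30, 0.30 and 0.31. Raet1e had 0 to 19 counts, F630028O10Rik 0 to 23, Disc1 0 to 26 and Nox4 2 to 36. Tec, with 29 to 431, and Gm26765, with 54 to 424, had more. S100a8 and Cxcr2 themselves had at most 23 and 18 counts in any pool, so a close pattern can rest on a few reads.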

How the data were processed

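Laser-captured spinal cord white matter was sequenced in 12 pools of 5 mice, 3 pools in each of 4 groups, and groups and replicate numbers were taken from the sample labels. According to the submitters' processing notes and the methods, read quality was checked with FastQC 0.11.4, reads were mapped to GRCm38 with TopHat2 2.0.10 and Bowtie 1.1.2, RNA was amplified when libraries were built, and the authors deposited raw counts of reads per gene from featureCounts. The annotation release, the strand setting and the treatment of reads shared by genes are not given in the sources used here. Since amplification copies molecules, intervals and floors cover counting error only. Each pool held other mice.

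Tests on the counts used edgeR 4.0.16 under R 4.3.3 (TMM factors, filterByExpr with a minimum count of 10, glmQLFit and glmQLFTest), with 1 coefficient per group over all 12 pools. Contrasts were injury at each age, age in naïve and in injured mice (middle-aged minus young), and the difference of the injury effects. Benjamini-Hochberg adjustment covered all 15866 genes tested, a gene was called at an adjusted p under 0.05, and standard errors were obtained from the log2 fold change and F. The CPM values were computed with TMM-scaled totals. Only the range of the floor in CPM was computed with library totals, of 9834447 to 12807437 counts. A gene at 0 in all pools of a group was given a fold as a lower bound, against 3 counts per library in CPM by TMM-scaled totals. Ratios of summed counts have 95% exact (Clopper-Pearson) intervals. Single genes were compared with 2-sided exact permutation tests on log2(CPM + 0.5). Positions, exon lengths and shared 31-base stretches came from GENCODE M21 (GRCm38), and promoters from RefSeq. The edgeR steps were tested on simulated data.

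The 10 genes and all lists were chosen with earlier results of these data known. The text names all 10, and of the related and recruitment genes those called by edgeR in any contrast, at most the 6 with the largest change per list and contrast. One gene of the recruitment list is not reported here and was left out of its counts. It also gives, as a choice made after their values were seen, counts for some genes of these lists that were not called or not tested. Alternatives were 4 other scalings, DESeq2 1.42.0, no filter and a filter at 1 CPM, only the pools compared, the replicate number as a block, and each pool left out in turn.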

Additional observations from a re-analysis of the deposited data

How the results depend on the processing

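S100a8 passed the threshold after injury under all alternatives in which it was tested, 20 in young mice (adjusted p = 6.61e-06 to 0.00149 by edgeR or DESeq2) and 21 in middle-aged mice. Except in the fit without a filter, S100a8, like Cxcr2, was tested only because of its injured pools, so nothing is read from the number of passes. In young mice the count of called neutrophil genes, 1 in the fit described, was 2 with library totals alone, 2 without a filter (S100a8 and S100a9), 0 with only the pools compared, where S100a8 was not tested, and 1 to 2 when single pools were left out. In middle-aged mice the count of 2 became 3 without a filter (S100a9 added) and 1 to 2 when single pools were left out. The log2 fold change of Cxcr2 in young mice was 1.11 to 3.46 over 21 alternatives, of which 2 passed the threshold: library totals alone (1.90, edgeR adjusted p = 0.0446) and the fit without young naïve replicate 3. In middle-aged mice it was 2.17 to 3.05, and 19 of 21 passed. Without a filter, 14 related genes were called after injury in middle-aged mice in place of 8, and the causes of these shifts were not tested. Recruitment genes called for age in injured mice, 0 in the fit described, were 1 with DESeq2, 1 without a filter, 4 with only the pools compared and 0 to 1 with single pools left out (1, Selp, without middle-aged naïve replicate 2).

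Samples with the same replicate number did not deviate together: over 18 such pairs r was -0.113 to 0.153, with 2 over 0.1, and over other pairs -0.174 to 0.172. With the replicate number as a block, 1 neutrophil gene was called after injury in young and 2 in middle-aged mice, as without it, while the recruitment genes called for age in naïve mice went from 2 to 1, since Itgam was no longer called (edgeR adjusted p = 0.0563). No pairing was used. With 3 pools a group and genes of 0 to 23 counts, the 95% intervals of the age differences of S100a8 and Cxcr2 in injured mice reached beyond 2-fold in both directions.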
